A study of Homo sapiens with 15 samples.

Results

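Histone genes were examined in MH7A cells, an established human synovial cell line, on arrays that measured the RNA of resting and stimulated cells. The genes were taken by name. A gene was included when its symbol in the array annotation was H1-, H2AC, H2BC, H3C or H4C followed by a number, or carried an older HIST1H to HIST4H name, and when it had a transcript cluster (the set of probes that the array reads as 1 gene) of its own. This gave 62 genes of the 18417 gene symbols on the array, with 10 genes of the H1 class, 14 of H2A, 17 of H2B, 8 of H3 and 13 of H4. By the RefSeq annotation, 49 of them lay on chromosome 6, 8 on chromosome 1, 2 on chromosome 12, 2 on chromosome 3 and 1 on chromosome 17. All 62 passed the filter on dim genes and were among the 16872 genes tested. H2BC1, a testis gene, cleared the filter's level on 8 of the 15 arrays and H4C7 on 14, and the other 60 cleared it on every array. H4C14 and H4C15 carried identical values on all arrays, which left 61 distinct profiles. The name took in genes outside the label as well, namely the pseudogenes H1-9P and H2BC19P, the replication-independent linker histone H1-10, and germline genes such as H1-6, H1-7 and H1-8. A further 14 histone genes, among them H3C13, H3C14 and H3C15, were read only through clusters shared with other histone genes.

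Histones package DNA into nucleosomes. H2A, H2B, H3 and H4 form the core of the particle, and H1 binds the linker DNA. Most of these genes lie in clusters, lack introns and are transcribed in S phase, when new DNA has to be packaged. Their mRNAs end in a stem-loop bound by SLBP in place of a poly(A) tail and are degraded when DNA synthesis stops, while some members also give polyadenylated transcripts outside S phase.

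The study asked how glucosamine (GlcN), a dietary amino sugar, changes gene expression in stimulated synovial cells, and used alloxan to inhibit the O-GlcNAc transferase. The labels number 3 separate experiments, and each ran all 5 conditions on 1 array apiece, or 15 arrays. Resting cells received no agent. The other groups were given IL-1β at 15 pg/ml for 13 h, either alone, with 5 mM GlcN added 2.5 h earlier, with alloxan (5 mM for 30 min and then 2 mM), or with GlcN and alloxan together. MH7A is a single cell line, so that the errors describe repeated experiments and not donors, and in bulk RNA fewer cells in S phase and less histone RNA per cell cannot be told apart.

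Values are log2 signals, which compare within an experiment, because the array medians were 6.18 to 6.21 in experiment 1, 7.14 to 7.19 in experiment 2 and 7.49 to 7.54 in experiment 3. Of 11 synovial fibroblast markers, VIM (percentile 98.3 to 99.3 of its array), COL1A1 (86.3 to 94.8), THY1, PDGFRB, COL1A2 and COL3A1 lay at or above 58.1 on every array. PDGFRA, PDPN, FAP and CDH11 lay between 19.2 and 52.1, and PRG4, the lubricin gene of the synovial lining, at 13.3 to 15.6. Of 5 macrophage markers, CD68 lay at 82.0 to 86.1 and the other 4 between 18.5 and 48.1. The leukocyte markers lay between 9.04 and 33.2, the endothelial ones between 19.3 and 43.3 and the epithelial ones between 15.5 and 55.0. Each difference below is the mean of the 3 within-experiment differences, with its SD, on the log2 scale. A difference was called when limma, fitted over all genes with the experiment as a block, gave a Benjamini-Hochberg adjusted p under 0.05. Counts at an unadjusted p, and counts from fits that leave out an array or an experiment, are given without the share over all genes. They are not read as a response.

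The promoters of 5 members are shown because these genes gave the responses described below. H2AC21, H2AC20 and H2BC5 were on the higher side, H1-1 was on the lower side, and H4C8 was lower with alloxan, alone or added to GlcN. Each promoter runs from 250 bases before to 50 bases after the start of the gene, 5′ to 3′ on the gene's strand, from RefSeq (GRCh38.p14). The windows are chr1:149887916-149888215 (minus strand) for H2AC21, chr1:149886668-149886967 (plus) for H2AC20, chr6:26157871-26158170 (plus) for H2BC5, chr6:26017738-26018037 (minus) for H1-1 and chr6:26285485-26285784 (minus) for H4C8. Capitals mark 4 motifs on either strand, the CCAAT box, the TATA box, the octamer that the factor POU2F1 can bind and the H1 box of linker histone promoters. The CCAAT box was searched as CCAAT and, for the other strand, as ATTGG. The TATA box was searched as TATAAA and as TTTATA. The octamer was searched as ATTTGCAT and as ATGCAAAT. The H1 box was searched as AAACACA and as TGTGTTT.
H2AC21: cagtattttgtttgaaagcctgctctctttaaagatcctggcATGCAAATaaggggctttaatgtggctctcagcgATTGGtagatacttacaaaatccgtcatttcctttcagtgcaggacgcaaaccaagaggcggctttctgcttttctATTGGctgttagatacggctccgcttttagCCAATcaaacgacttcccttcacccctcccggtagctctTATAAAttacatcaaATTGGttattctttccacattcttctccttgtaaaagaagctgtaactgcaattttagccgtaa
H2AC20: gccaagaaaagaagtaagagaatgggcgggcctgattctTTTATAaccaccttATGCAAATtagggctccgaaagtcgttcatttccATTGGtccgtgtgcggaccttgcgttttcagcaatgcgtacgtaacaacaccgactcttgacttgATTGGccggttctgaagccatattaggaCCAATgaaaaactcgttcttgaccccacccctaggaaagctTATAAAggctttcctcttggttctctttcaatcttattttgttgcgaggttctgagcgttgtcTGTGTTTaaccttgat
H2BC5: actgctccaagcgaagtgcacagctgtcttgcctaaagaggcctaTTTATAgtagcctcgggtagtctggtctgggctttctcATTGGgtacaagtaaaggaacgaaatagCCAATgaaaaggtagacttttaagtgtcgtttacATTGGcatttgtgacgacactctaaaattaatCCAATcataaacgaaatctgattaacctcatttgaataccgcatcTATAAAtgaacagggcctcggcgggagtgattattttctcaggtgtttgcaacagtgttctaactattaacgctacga
H1-1: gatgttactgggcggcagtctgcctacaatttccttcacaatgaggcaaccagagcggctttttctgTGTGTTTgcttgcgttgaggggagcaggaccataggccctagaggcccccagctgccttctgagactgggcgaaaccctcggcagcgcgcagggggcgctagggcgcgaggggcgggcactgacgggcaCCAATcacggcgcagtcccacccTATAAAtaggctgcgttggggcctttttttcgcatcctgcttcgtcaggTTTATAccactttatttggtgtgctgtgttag
H4C8: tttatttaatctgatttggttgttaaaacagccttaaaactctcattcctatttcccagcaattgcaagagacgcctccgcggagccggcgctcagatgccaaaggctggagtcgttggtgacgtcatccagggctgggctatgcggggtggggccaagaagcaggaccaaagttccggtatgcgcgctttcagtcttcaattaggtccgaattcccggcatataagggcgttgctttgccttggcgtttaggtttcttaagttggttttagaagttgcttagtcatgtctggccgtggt

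In these 5 windows no match shared a base with another. H2AC21 held 4 CCAAT, 1 TATAAA and 1 octamer, and H2AC20 held 3, 2 and 1 with 1 H1 box match after the start. H2BC5 held 4 CCAAT and 2 TATAAA without an exact octamer, H1-1 held 1 CCAAT, 2 TATAAA and 1 H1 box, and the H4C8 window held none of the 4 motifs. Among all members, 55 of the 62 had a promoter in the table. CCAAT stood in 83.6% of these against 35.7% of 27305 promoters of all genes, TATAAA in 63.6% against 12%, the octamer in 41.8% against 1.80%, and the H1 box in 14.5% against 5.76%. The classes differed in their letters. The octamer stood in 10 of 13 H2A and 13 of 16 H2B promoters and in none of the 9 H1, 6 H3 and 11 H4 promoters, the H1 box stood in 7 of 9 H1 promoters, and CCAAT stood in every H2A, H2B and H3 promoter but in 3 of 11 H4 promoters. A match is a description of the letters, and factor binding was not measured here.

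One array stood apart for these genes. On the IL-1β array of experiment 3, 44 of the 62 members lay below the median of the other 4 arrays of that experiment and 34 were the lowest of the 5 arrays, which is 54.8% against 14.3% of all genes tested. The median member lay at -0.15 there, and 9 members (14.5%, against 0.925% of all genes) lay more than 0.5 below. H4C4 deviated by -0.90, H4C13 by -0.87, H4C3 by -0.85 and H2AC21 by -0.69, whereas H1-1 stood 0.38 and H4C8 0.25 above that median. The other 4 arrays include the treated ones, so for genes that respond to the agents the deviation also holds the response. Beside the resting array alone, H4C4 read 8.25 against 9.04, H2AC21 11.18 against 11.36, H1-1 10.16 against 10.55 and H4C8 11.60 against 11.66. All 8 H3 genes and 13 of 14 H2A genes were below, with class medians of -0.37 and -0.28, and the H1 class had a median of 0.01. On the same array the DNA replication list had a median deviation of -0.04 over 42 genes and the mitosis list one of 0.14 over 23 genes. IL-1β arrays are the control of 3 comparisons, which therefore share this array, and the counts of histone genes called are given with and without it.

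**Figure D1:**
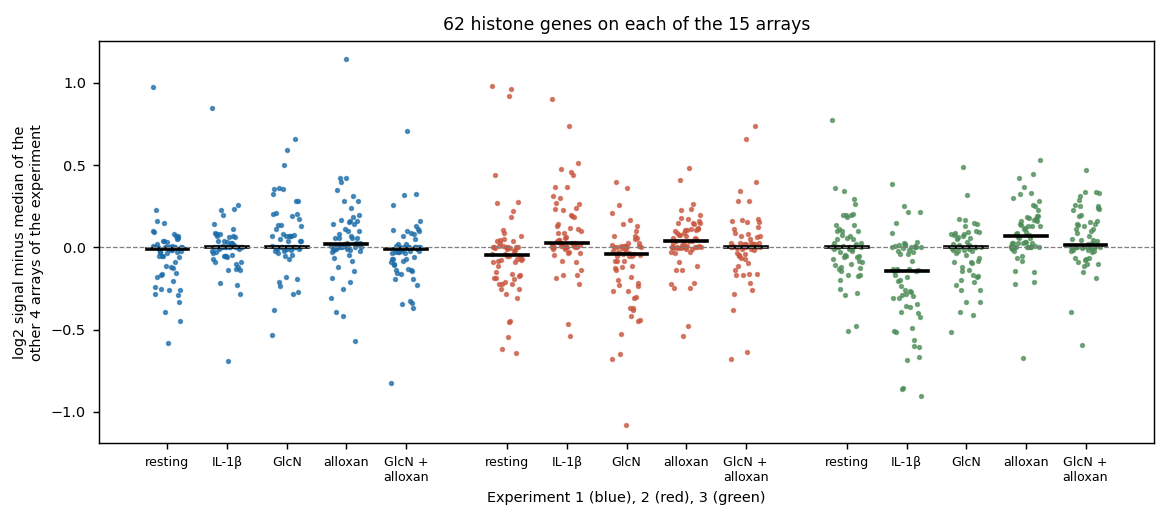
Log2 signal of each of the 62 histone genes minus the median of the other 4 arrays of the same experiment (vertical axis), for the 15 arrays grouped by experiment. Each point is 1 gene and the black bar is the median, which lies at -0.15 on the IL-1β array of experiment 3 and between -0.045 and 0.069 on the other 14.

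IL-1β alone called none of the 62 members, and none of the 16872 genes tested passed in this comparison (0%). At an unadjusted p under 0.05, limma gave 3 members higher and 2 lower. Members' median difference was 0.03 in experiment 1, 0.07 in experiment 2 and -0.13 in experiment 3, where the array above is the stimulated one. H2AC12, a core H2A gene, and H2AC15 had the smallest p. For H2AC12 the difference from resting cells was 0.28 ± 0.12 (SD, n = 3; limma adjusted p = 0.668) and for H2AC15 it was -0.19, and neither was called. Leaving out the IL-1β array of experiment 3 also gave 0 members, with 7 higher and 0 lower at the unadjusted p.

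GlcN called 6 of the 62 members, 3 higher and 3 lower, or 9.68% against 11.9% of all genes tested (5.29% higher and 6.62% lower). The histone genes as a group thus stood near the background, and their median difference was 0.03 against 0.01 for all genes. H2AC21, H2AC25 and H2BC5 rose, and H1-1, H2AC12 and H3C1 fell. Alloxan alone called 8, with H2AC21, H1-10, H2AC20, H2AC11 and H2BC5 higher and H1-1, H4C8 and H4C16 lower, or 12.9% against 13.3% of all genes (6.13% higher and 7.21% lower). GlcN with alloxan called 4 (6.45% against 17.5% of all genes, 9.06% higher and 8.47% lower), H2AC21, H2BC5 and H2AC20 higher and H1-1 lower. Without the IL-1β array of experiment 3 the counts were 2 higher and 4 lower for GlcN, and 4 and 2 for alloxan. With both agents they were 3 and 5, against 3 and 1 with all arrays. How many of all genes such refits called is not given, so these moves are not read as a histone response. Other single arrays also moved the counts by more than 1.5 times. The higher calls with alloxan were 2 without the alloxan array of experiment 3, and the lower calls were 1 without the IL-1β array of experiment 2 and 5 without the GlcN array of experiment 1. With both agents there were 5 higher calls without the IL-1β array of experiment 1, and 2 lower calls without the GlcN or the alloxan array of experiment 1 and 3 without the GlcN array of experiment 2. Without the experiment as a block, limma called 0 members in every comparison, also at an unadjusted p under 0.05, and it called 4 of all genes (0.0237%) for GlcN, 0 (0%) for alloxan and 1 (0.00593%) for both.

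Fibroblast markers moved in the same comparisons. Of the 10 tested, 5 were lower with GlcN (50% against 6.62% of all genes tested; median -0.30). With alloxan 5 were lower (50% against 7.21%; median -0.31) and with both agents 6 (60% against 8.47%; median -0.38). The counts without the IL-1β array of experiment 3 were 5, 4 and 6. The GlcN count was 2 without the IL-1β array of experiment 1, and the alloxan count was 3 without the IL-1β or the alloxan array of experiment 1 or 2 or the alloxan array of experiment 3. Their part in the histone values was not tested.

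**Figure D2:**
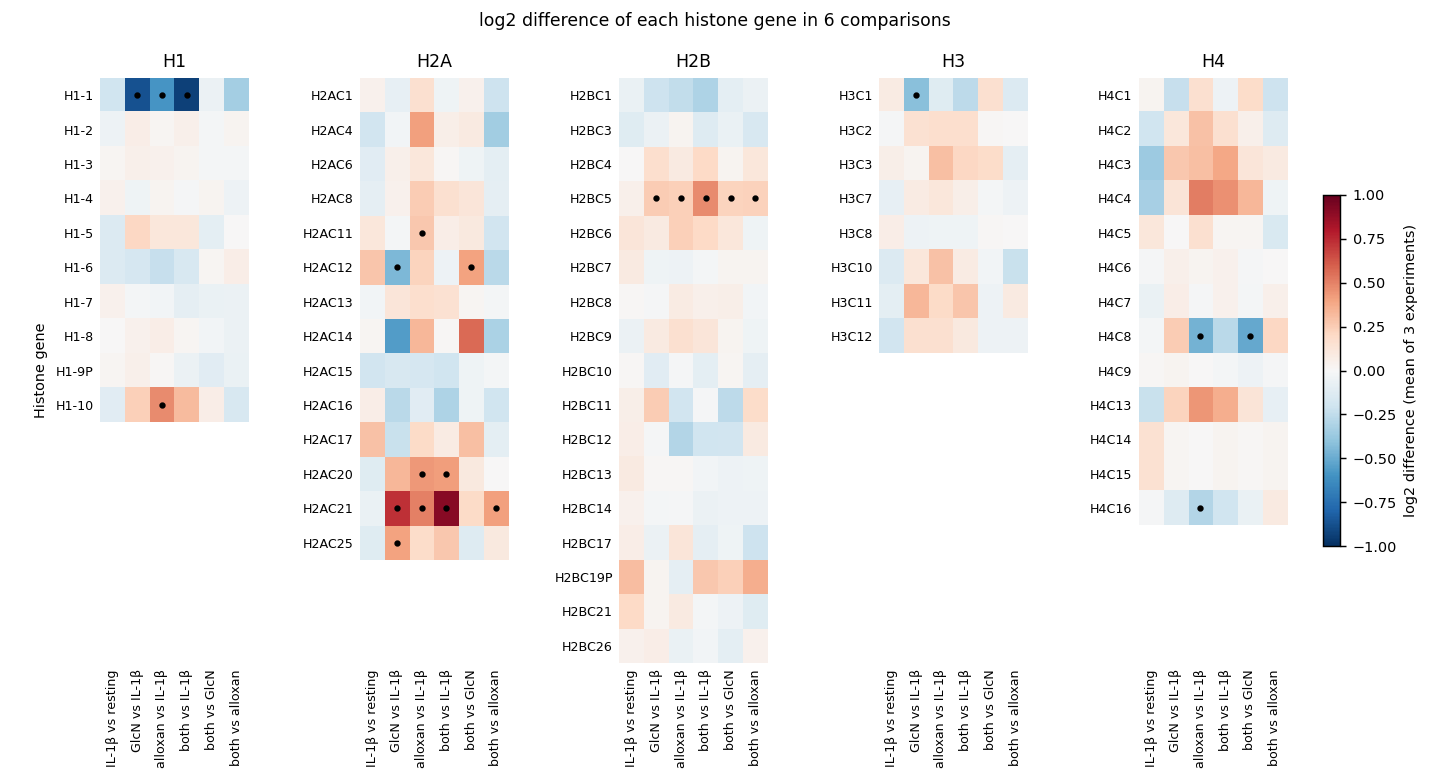
Mean log2 difference over 3 experiments (colour) of each histone gene (rows, by class) in 6 comparisons (columns, where both means GlcN with alloxan). Dots mark limma calls at an adjusted p under 0.05 with the experiment as a block, which stand in 5 of 6 columns for H2BC5, 4 for H2AC21 and 3 for H1-1, while most rows stay pale.

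H2AC21 gave the largest rise among the called members. This H2A gene of the chromosome 1 cluster (older name HIST2H2AB) was among those the study listed as raised by GlcN, so its direction is not independent evidence. Its log2 signal in experiments 1, 2 and 3 was 10.19, 11.38 and 11.36 in resting cells, 10.08, 11.46 and 11.18 with IL-1β, 10.97, 12.01 and 11.91 with GlcN added, 10.57, 11.84 and 11.82 with alloxan, and 11.09, 12.31 and 12.06 with both. The order was the same in each experiment, with both agents highest, then GlcN, then alloxan, and the IL-1β and resting arrays lowest. GlcN raised it by 0.73 ± 0.17 (1.65-fold; SD, n = 3; limma adjusted p = 6.44e-05), alloxan by 0.50 ± 0.13 (1.42-fold; adjusted p = 0.000985) and both by 0.91 ± 0.08 (1.88-fold; adjusted p = 9.29e-06). These 3 calls held without any single array, and without the IL-1β array of experiment 3 the differences were 0.70, 0.47 and 0.88. In the presence of alloxan, GlcN still raised H2AC21, by 0.41 ± 0.14 (adjusted p = 0.00758), a call that ended without the alloxan array of experiment 1 (0.37). Adding alloxan to GlcN gave 0.19 ± 0.10 (adjusted p = 0.136).

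Its neighbour H2AC20, whose promoter lies in the same stretch of chromosome 1, was called with alloxan and with both agents. With IL-1β alone the log2 signal was 10.39, 10.95 and 10.87 in experiments 1 to 3, with alloxan 10.72, 11.22 and 11.56, with both 10.65, 11.23 and 11.61, and with GlcN 10.69, 11.12 and 11.39. All 3 treated arrays exceeded IL-1β alone in every experiment, and most so in experiment 3, where the resting array (11.35) was also far above it. The rise was 0.43 ± 0.23 (1.35-fold; limma adjusted p = 0.0158) with alloxan and 0.42 ± 0.27 (adjusted p = 0.0122) with both, and GlcN gave 0.33 ± 0.18 (adjusted p = 0.0547). Without the IL-1β array of experiment 3 both rises were 0.29 and stayed called. The alloxan call ended without the alloxan array of experiment 1 (0.42) or 3 (0.40), and the call with both agents ended without that group's array of experiment 3 (0.37). A cluster shared by H2AC18, H2AC19, H2AC20 and H2AC21, which was not counted among the 62, gave 0.39 ± 0.31 with alloxan (adjusted p = 0.0393), 0.37 ± 0.39 with both (adjusted p = 0.0399) and 0.35 with GlcN (adjusted p = 0.0693).

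The other called H2A genes differed from this pattern. H2AC25, of the small histone cluster on chromosome 1, had log2 signals of 6.27, 7.26 and 7.22 with IL-1β and 6.48, 7.75 and 7.72 with GlcN. The resting array of experiment 3 (7.75) was as high as the GlcN array. The GlcN difference was 0.40 ± 0.16 (limma adjusted p = 0.0466), and this call ended on leaving out any of 12 of the 15 arrays (0.28 to 0.46, lowest without the IL-1β array of experiment 3). It held without the IL-1β array of experiment 1, the resting array of experiment 3 or the array with both agents of experiment 3. H2AC12 went the other way and fell with GlcN. Its log2 signal was 7.97, 9.07 and 9.07 in resting cells and 8.30, 9.44 and 9.21 with IL-1β. It was 7.99, 8.68 and 8.93 with GlcN, 8.15, 9.21 and 9.43 with both and 8.49, 9.55 and 9.56 with alloxan. The GlcN array thus lay beside the resting array in experiment 1 and below it in experiments 2 and 3. GlcN arrays were lowest among the stimulated ones in all 3 experiments. The difference was -0.45 ± 0.27 (0.732-fold; adjusted p = 0.00845), kept without any single array, while alloxan added to GlcN raised it by 0.40 ± 0.21 (adjusted p = 0.0259) and both agents against IL-1β gave -0.05. That last rise was not called without the GlcN array of experiment 2 (0.29) or 3 (0.41), or without the array with both agents of experiment 2 (0.42) or 3 (0.31). H2AC11 rose with alloxan by 0.27 ± 0.07 (adjusted p = 0.00493), kept without any single array, and gave -0.02 ± 0.03 with GlcN. H2AC14 had the lowest H2A value with GlcN, -0.56 ± 0.77, but it came mostly from experiment 2 (-1.44) and was not called (adjusted p = 0.246).

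Of the 17 H2B genes, H2BC5 alone was called, and it was higher in 5 comparisons. H2BC5 (older name HIST1H2BD) is known to give polyadenylated as well as stem-loop transcripts. Its log2 signal in experiments 1, 2 and 3 was 7.92, 8.57 and 8.89 in resting cells, 7.98, 8.71 and 8.82 with IL-1β, 8.27, 8.86 and 9.14 with GlcN, 8.15, 8.89 and 9.19 with alloxan, and 8.39, 9.18 and 9.35 with both. The arrays with both agents were highest in each experiment, and those with a single agent lay between them and IL-1β alone. The rise was 0.25 ± 0.10 with GlcN (limma adjusted p = 0.00914), 0.24 ± 0.11 with alloxan (adjusted p = 0.0119) and 0.47 ± 0.06 (1.38-fold; adjusted p = 0.000112) with both. Alloxan added to GlcN raised it by 0.22 ± 0.10 (adjusted p = 0.0315) and GlcN in the presence of alloxan by 0.23 ± 0.06 (adjusted p = 0.0355). The GlcN call and that with both agents held without any single array. The alloxan call ended without the alloxan array of experiment 3 (0.20), and the rise on adding alloxan to GlcN ended without the array with both agents of experiment 1 (0.24), 2 (0.18) or 3 (0.22) or the GlcN array of experiment 2 (0.18) or 3 (0.21). The rise with GlcN in the presence of alloxan ended without any of 9 arrays (0.20 to 0.26), and held without the GlcN array of experiment 1, the resting, IL-1β or GlcN array of experiment 2, or the resting or IL-1β array of experiment 3.

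H2BC5 belongs to a list of 7 members known for polyadenylated transcripts, and none of the other 6 was called higher. H1-2, H2AC6, H2BC4, H2BC12 and H2BC21 were not called in any comparison, with GlcN values from -0.01 to 0.17. H4C8 was called lower with alloxan and on adding alloxan to GlcN, while with GlcN it gave 0.25 and was not called. With GlcN, 6 of the 7 differences were positive. The median of the 7 was 0.07 with GlcN, 0.09 with alloxan and 0.01 with both agents, against 0.01, 0.02 and -0.00 over all genes. H2BC12 had the largest of the uncalled values, -0.29 ± 0.18 with alloxan (limma adjusted p = 0.0799).

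**Figure D3:**
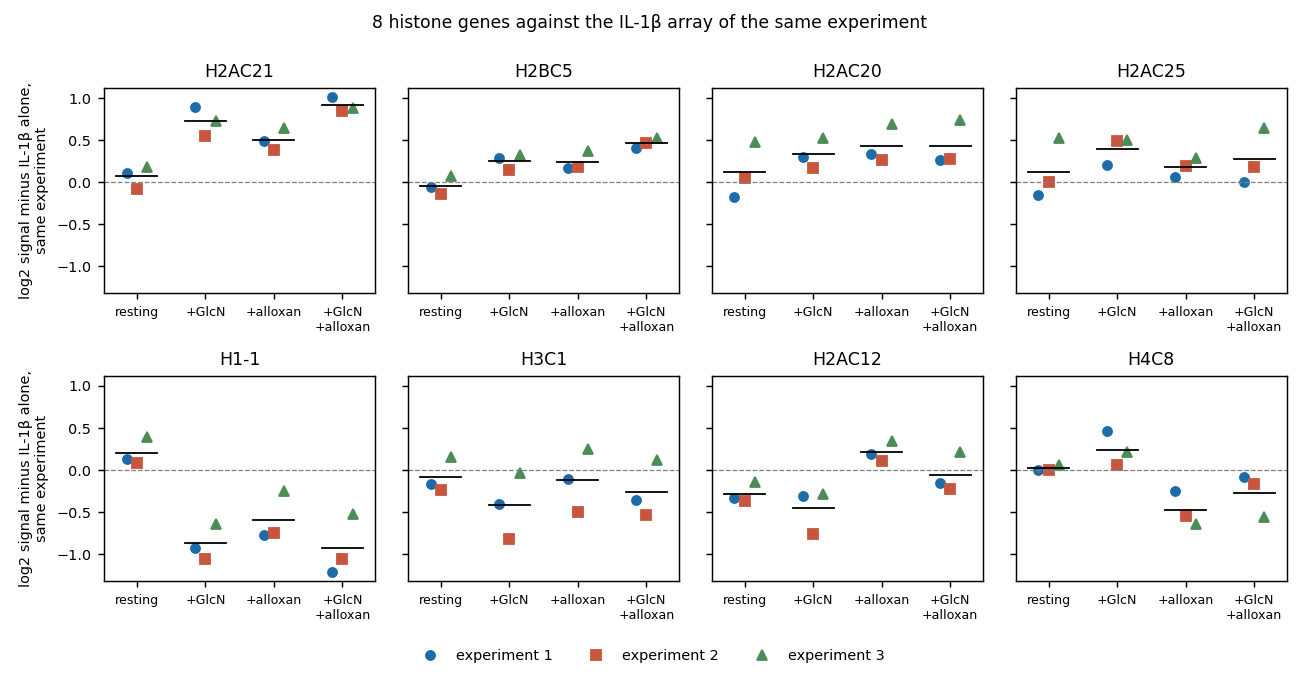
Log2 signal minus that of the IL-1β array of the same experiment (vertical axis) for 8 histone genes in resting cells and with GlcN, alloxan or both. Each symbol is 1 experiment, the black bar is the mean of 3 and the dashed line is IL-1β alone, and the H2AC21 points with both agents lie between 0.85 and 1.01 while those of H1-1 lie between -1.21 and -0.52.

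H4C8, an H4 gene of the chromosome 6 cluster, responded to alloxan in the opposite direction to H2AC21. Its log2 signal was 10.18, 11.42 and 11.60 with IL-1β, 9.93, 10.88 and 10.96 with alloxan, 10.64, 11.48 and 11.81 with GlcN, and 10.10, 11.25 and 11.04 with both. The alloxan array was the lowest and the GlcN array the highest of the 5 in every experiment. Alloxan lowered it by -0.47 ± 0.20 (0.720-fold; limma adjusted p = 0.0136) and, on top of GlcN, by -0.51 ± 0.27 (adjusted p = 0.0167), while GlcN gave 0.25 ± 0.20 (adjusted p = 0.174). The first call ended without the IL-1β array of experiment 2 (-0.45) or 3 (-0.42) or the alloxan array of experiment 2 (-0.45) or 3 (-0.43), and the second without the experiment 3 array with GlcN (-0.48) or with both agents (-0.39). H4C16, the lone H4 gene on chromosome 12, fell with alloxan by -0.29 ± 0.07 (adjusted p = 0.0144), except when the IL-1β array of experiment 2 (-0.27) or the alloxan array of experiment 1 (-0.22) was left out. H4C4 had the highest alloxan value of all members, 0.51 ± 0.62, but was not called (adjusted p = 0.0907). Its 3 differences were 0.07, 0.23 and 1.22, and without the IL-1β array of experiment 3 the value was 0.23.

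Among the 8 H3 genes, H3C1 alone was called, lower with GlcN. Its log2 signal was 9.79, 11.28 and 10.11 with IL-1β and 9.39, 10.46 and 10.07 with GlcN. The fall was large in experiment 2 (-0.82) and close to 0 in experiment 3 (-0.04). The mean was -0.42 ± 0.39 (limma adjusted p = 0.0474), and the call ended on leaving out any of 13 of the 15 arrays (-0.49 to -0.27). It held without the alloxan array of experiment 2 or the IL-1β array of experiment 3, where the value was -0.59 in the latter case. The other 7 H3 genes ranged from -0.05 to 0.33 with GlcN.

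H1-1 gave the largest fall among the called members. This linker histone gene of chromosome 6 had log2 signals of 9.22, 10.88 and 10.55 in resting cells, 9.09, 10.80 and 10.16 with IL-1β, 8.17, 9.75 and 9.52 with GlcN, 8.32, 10.05 and 9.91 with alloxan, and 7.88, 9.75 and 9.64 with both. Every treated array lay below both the resting and the IL-1β array of its experiment. GlcN lowered it by -0.87 ± 0.21 (0.548-fold; limma adjusted p = 0.000383), alloxan by -0.59 ± 0.29 (0.666-fold; adjusted p = 0.00427) and both by -0.93 ± 0.36 (0.526-fold; adjusted p = 0.000132). These calls held without any single array. Without the IL-1β array of experiment 3, which lay below the resting array of that experiment (10.16 against 10.55), the values were -1.01, -0.73 and -1.08. None of the linker genes H1-2, H1-3, H1-4 and H1-5 was called. The first 3 lay between -0.04 and 0.07 with GlcN and between 0.02 and 0.04 with alloxan, and H1-5 gave 0.21 ± 0.19 with GlcN (adjusted p = 0.129) and 0.11 ± 0.16 with alloxan. H1-10, a replication-independent linker histone on chromosome 3, rose with alloxan by 0.47 ± 0.31 (adjusted p = 0.0229) with differences of 0.16, 0.79 and 0.47, and lost the call without the IL-1β array of experiment 2 (0.37) or 3 (0.44) or the alloxan array of experiment 2 (0.38) or 3 (0.51). H1-1 is also on a list of genes known from the germline, which was compiled from general knowledge. Its signal here lay at percentile 71.8 to 91.1 of its array. Of that list 7 genes were tested, and the other 6 were not called in any of these comparisons.

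Adding alloxan to GlcN called 3 members, H2AC12 and H2BC5 higher and H4C8 lower (4.84% against 6.79% of all genes, 3.27% higher and 3.52% lower), and GlcN in the presence of alloxan called 2, H2AC21 and H2BC5, both higher (3.23% against 3.53%, 1.86% higher and 1.67% lower). Without the IL-1β array of experiment 3, which enters these comparisons only through the shared spread and the block, the counts were 2 higher and 1 lower in each. On adding alloxan to GlcN, the higher calls were 1 without the array with both agents of experiment 1 and 0 without the GlcN array or that with both agents of experiment 2 or 3, and the lower calls were 0 without either of the latter in experiment 3. For GlcN in the presence of alloxan, the higher calls were 0 without the alloxan array of experiment 1 and 1 without the resting, IL-1β or combined array of experiment 1, the alloxan or combined array of experiment 2, or the GlcN, alloxan or combined array of experiment 3. A lower call appeared there without the resting or the IL-1β array of experiment 3. Whether the GlcN response differed with alloxan present was tested as an interaction, and 0 of the 62 members passed (0.0711% of all genes did, with 0.0593% lower). At an unadjusted p under 0.05, limma gave 2 members higher and 5 lower, and 3 and 1 without the IL-1β array of experiment 3. H1-1 came closest, with a GlcN difference of -0.87 without and -0.34 with alloxan (interaction 0.53 ± 0.20; adjusted p = 0.273; 0.67 and still not called without the IL-1β array of experiment 3), followed by H2AC21, with 0.73 and 0.41 (-0.31 ± 0.22; adjusted p = 0.317). The interaction was negative for 44 of the 62 members and for 9534 of the 16872 genes tested, with medians of -0.06 and -0.02. Without the IL-1β array of experiment 3 it was negative for 36 members, with a median of -0.02.

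Many H2A and H2B genes lie head to head and share the DNA between their starts. Of 11 such pairs by RefSeq, 9 had both genes measured, with 215 to 248 bases between the starts. With alloxan the H2A gene lay above its H2B partner in all 9 pairs, with medians of 0.19 and 0.01, and 2 of the H2A genes (H2AC11 and H2AC20) were called. H2AC11 rose by 0.27 ± 0.07 while H2BC11, 248 bases away, gave -0.19 ± 0.05 (limma adjusted p = 0.287). The count of pairs was 7, 6 and 9 in experiments 1, 2 and 3, and the H2A medians were 0.06, 0.06 and 0.40, so that the excess was greatest where the IL-1β array stood apart. Over experiments 1 and 2 alone it was 8 of 9 pairs, with medians of 0.11 and -0.04. GlcN gave no such order, with 5 of 9 pairs and medians of 0.04 and 0.01. These pairs were chosen after their values were seen, and the difference between partners was not tested.

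**Figure D4:**
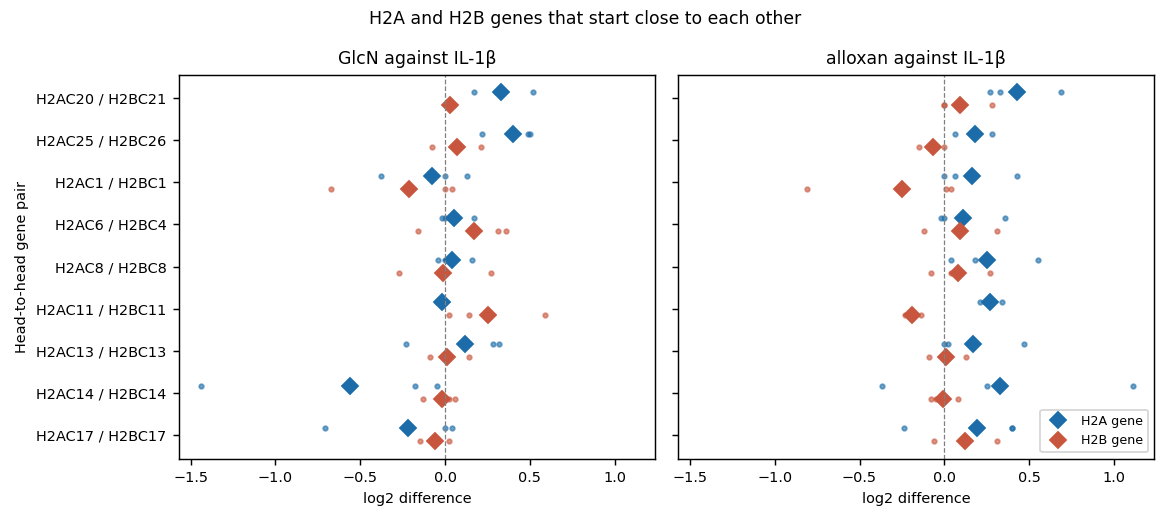
Log2 difference against IL-1β alone (horizontal axis) of the H2A gene (blue) and the H2B gene (red) in 9 head-to-head pairs, with GlcN (left) and alloxan (right). Diamonds are means of 3 experiments and dots are the experiments, and on the right every blue diamond lies to the right of its red partner, with medians of 0.19 and 0.01.

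By class, the alloxan medians were 0.20 for H2A, 0.16 for H3, 0.03 for H4, 0.02 for H1 and 0.01 for H2B, and 12 of 14 H2A genes had a positive difference. The H2A median was 0.13, 0.08 and 0.38 in experiments 1, 2 and 3 and that of H3 was 0.02, 0.01 and 0.42. The larger part of both medians thus came from the experiment whose IL-1β array was low for these classes. Without that array the H2A median was 0.09, again with 12 of 14 positive, and the H3 median was 0.04. Over all 62 members the alloxan median was 0.09, and 0.03 without the array, against 0.02 for all genes tested. For GlcN it was 0.03 and -0.03.

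The factors that make and process histone mRNA were measured on the same arrays, in lists compiled from general knowledge. Of 25 genes for histone gene transcription and mRNA processing, GlcN called 6, all lower (24% of the list against 11.9% of all genes tested, 6.62% lower, and median -0.11). The 6 were NPAT, CASP8AP2 and TUT7, and also CCNE1, CCNE2 and CDK2. The latter are genes of the cell-cycle kinase of cyclin E and CDK2, so the list is not of histone factors alone. Alloxan called 4 higher and 3 lower (28% against 13.3%; median 0.01), and adding alloxan to GlcN called 7 higher and 2 lower (36% against 6.79%; median 0.13). The count lower with GlcN was 2 without the IL-1β array of experiment 3, 3 without the IL-1β or the GlcN array of experiment 2 or the GlcN array of experiment 3, and 10 without the GlcN array of experiment 1. The count higher with alloxan was 2 without the alloxan array of experiment 1. On adding alloxan to GlcN, the higher count was 4 without the GlcN array of experiment 2 or 3 or the combined array of experiment 2, and 3 without the combined array of experiment 3. NPAT, the coactivator of S-phase histone transcription, fell with GlcN by -0.40 ± 0.15 (limma adjusted p = 0.000825), kept without any single array, and on adding alloxan it rose by 0.28 ± 0.07 (adjusted p = 0.0142). SLBP gave -0.11 ± 0.10 with GlcN (adjusted p = 0.186) and rose with alloxan by 0.19 ± 0.07 (adjusted p = 0.0196). That SLBP call ended without the alloxan array of experiment 1 (0.20), 2 (0.18) or 3 (0.19) or the IL-1β array of experiment 2 (0.16) or 3 (0.18). Adding alloxan to GlcN raised CCNE2, a cyclin E gene, by 0.66 ± 0.13, HINFP, a factor of H4 gene transcription, by 0.32 ± 0.05 and UPF1, which takes part in histone mRNA decay, by 0.35 ± 0.13, and lowered PRKDC by -0.41 ± 0.13, and these 4 calls held without any single array. The histone genes themselves were called in both directions in that comparison and in those with GlcN and with alloxan, as given above.

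Of 22 histone chaperones, GlcN called 1 higher and 2 lower (13.6% against 11.9% of all genes). Alloxan called 1 higher (4.55% against 13.3%, with 6.13% of all genes higher). Without the IL-1β array of experiment 3 these were 2 higher and 1 lower, and 2 higher, and over all 15 single arrays left out they ranged from 0 to 2, 1 to 2 and 0 to 2. ASF1A, which hands H3 and H4 to assembly factors, rose with GlcN by 0.86 ± 0.64 (limma adjusted p = 0.0201), with differences of 1.09, 1.34 and 0.14, a call that ended without the GlcN or the IL-1β array of experiment 1 or 2. NASP, a chaperone for H3 and H1, fell by -0.26 ± 0.17 (adjusted p = 0.0103), kept without any single array. Of 8 replication-independent variant genes tested, GlcN called 1 lower and alloxan 1 higher (12.5% each, against 6.62% and 6.13% of all genes). The counts were 0 and 0 without the IL-1β array of experiment 3.

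Genes of S phase and mitosis were read beside the histone genes. Of 42 DNA replication genes, GlcN called 1 higher and 7 lower (19% against 11.9% of all genes; median -0.10), and alloxan called 8 higher and 3 lower (26.2% against 13.3%; median 0.10). With GlcN, the higher count was 2 without the IL-1β array of experiment 3 and 0 without the GlcN array of experiment 2, and the lower count was 4 without the IL-1β array of experiment 1 or 2. The count higher with alloxan was 3 without the IL-1β array of experiment 3, 5 and 2 without those of experiments 1 and 2, and 3, 2 and 4 without the alloxan array of experiments 1, 2 and 3. With alloxan, CDT1, a licensing factor, rose by 0.63 ± 0.07 and GINS3 of the replicative helicase by 0.45 ± 0.08, while POLA1 and PRIM2, of the polymerase that makes primers, fell by -0.35 ± 0.08 and -0.38 ± 0.08. Of 23 mitosis genes, limma called 0 with GlcN (0% against 11.9%), with 0 higher and 2 lower at an unadjusted p under 0.05, and 1 lower without the IL-1β or the GlcN array of experiment 3. Alloxan called 5 mitosis genes, all lower (21.7% against 13.3%, with 7.21% of all genes lower). Among them were CENPE, a kinetochore motor, by -0.69 ± 0.34 and CDC20, an activator of mitotic exit, by -0.20 ± 0.04. The count of lower mitosis genes was 3 without the resting, IL-1β or GlcN array of experiment 3 and 2 without the IL-1β array of experiment 1 or the alloxan array of experiment 1 or 3, and 1 higher call appeared without the resting array of experiment 2. Of 9 genes linked to arrest in G1, GlcN called 1 lower (11.1% against 11.9%, with 6.62% of all genes lower). Alloxan called 1 higher and 2 lower (33.3% against 13.3%). Without the IL-1β array of experiment 3 there was 1 lower in both and 1 higher with alloxan. CDKN1A, the gene of the inhibitor p21, rose with alloxan by 0.88 ± 0.03 (limma adjusted p = 3.17e-05) and fell with GlcN by -0.36 ± 0.15 (adjusted p = 0.00608), and RB1 fell with alloxan by -0.37 ± 0.16. The alloxan calls named here held without any single array. The share of cells in S phase was not measured, and its part in the histone values was not tested.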

How the data were processed

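RNA of 15 MH7A samples was hybridised to Affymetrix Human Gene 1.0 ST arrays. The authors made log2 signals from the probes by RMA with Affymetrix Expression Console, whose version the sources used here do not give, and deposited them for 33297 transcript clusters. Their background correction and normalization were kept. Paralogous histone genes are so alike that a probe may read several. No detection call was used, and 3 arrays a group limit the precision.

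Groups and experiment numbers came from the submitters' labels. Clusters with 1 symbol in the platform annotation were used, with the cluster of the highest mean for each gene, and gene IDs gave current symbols for 19429 clusters. Genes at or above the 20th percentile of their array on at least 3 of 15 arrays were tested. The model (limma 3.58.1, R 4.3.3, lmFit and eBayes, two-sided) had 5 group means and the experiment as a block, with 8 residual degrees of freedom, 7 comparisons and Benjamini-Hochberg adjustment over 16872 genes. Deviations from the group means correlated at 0.410 to 0.739 over 30 array pairs of the same experiment, so the numbers pair the arrays. Over 75 pairs of different experiments they correlated at -0.662 to 0.00971. Negative values there are partly built in, because the deviations within a group cancel out. The study's own test was unpaired. The model was tested on simulated data. Pseudogenes and testis genes were kept where their names matched.

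The members, gene lists and tests were chosen with earlier results of these data known, and the H1 box and the pairs were added afterwards. Named were up to 6 called members per comparison with the smallest p and 1 direction in 3 of 3 experiments (the 2 smallest p where none was called), the highest and lowest for GlcN and alloxan, H1-10, H2AC21, the polyadenylated list, SLBP and NPAT, and up to 4 genes of each other list. Other members given by value, such as H2AC14, H2BC11, H1-3, H1-4 and H1-5, were chosen after their values were seen, as were the counts of the other lists without single arrays. Alternatives left out the block, a sample or an experiment, or changed the filter, the choice of clusters or the scaling. Others changed the samples fitted, the moderation or the test (the methods' unpaired t-test, here with Benjamini-Hochberg adjustment, which the study did not apply).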

Additional observations from a re-analysis of the deposited data

How the results depend on the processing

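The calls rested on pairing by experiment. Without the replicate block, 0 histone genes were called higher or lower in every comparison where the blocked fit called any, and 4, 0 and 1 of all genes were called for GlcN, alloxan and both agents, against 2010, 2250 and 2958 with it. An unpaired t-test like that of the methods, run on the deposited values with Benjamini-Hochberg adjustment, also gave 0 in each. The study applied no such correction, used a fold cut-off and listed H2AC21, so this does not repeat its test. Fits of only the groups compared gave 0 too, except for 2 higher with both agents in place of 3. Most other settings kept each count within 1.5 times. The exceptions were 6 higher with both agents when shared clusters were included, 2 lower with both agents at the 50th percentile filter and with quantile normalization, and 1 lower for GlcN in the presence of alloxan at the 50th percentile filter. Over 18 omissions of an array or an experiment, GlcN called 1 to 3 higher and 0 to 4 lower, alloxan 1 to 6 and 0 to 5, both agents 2 to 5 and 1 to 5, alloxan added to GlcN 0 to 3 and 0 to 1, GlcN in the presence of alloxan 0 to 2 and 0 to 1, and IL-1β and the interaction 0. Some uncalled values changed sign over these omissions. For GlcN these were H2BC12 (-0.01, 0.01 with equal medians, -0.12 to 0.11 over omissions), H1-2 (-0.02 to 0.15) and H2AC6 (-0.05 to 0.10), and for alloxan H1-2 (-0.06 to 0.09), H2AC6 (-0.01 to 0.18), H2BC21 (-0.01 to 0.15) and H2BC4 (-0.02 to 0.19). The cause of these changes was not tested.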

Other observations

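Histone genes that the array reads together stood in 16 transcript clusters with 10 distinct sets of symbols, outside the 62 genes above. The cluster of H2BC15 and H2AC15, a neighbouring H2B and H2A gene, rose with GlcN and alloxan together by 0.30 ± 0.11 (SD, n = 3; limma adjusted p = 0.00768), with differences of 0.18, 0.38 and 0.34, and by 0.26 ± 0.14 (adjusted p = 0.0334) when alloxan was added to GlcN. The cluster of H2BC19P, H2BC20P and H2BC21 rose with both agents by 0.14 ± 0.06 (adjusted p = 0.0246). The cluster of the H3 genes H3C13, H3C14 and H3C15 was not called, with 0.04 ± 0.11 for GlcN, 0.26 ± 0.17 for alloxan (adjusted p = 0.0818) and 0.20 ± 0.21 for both. The cluster of H3C4 and H2AC7 gave alloxan differences of 0.02, -0.08 and 0.99 in experiments 1, 2 and 3, and was highest in the experiment whose IL-1β array stood apart. Which gene of a shared cluster gave the signal cannot be told apart.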
